A study of Homo sapiens with 2 samples.

Results

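TCF7L1 belongs to the TCF/LEF factors, which act at the end of Wnt signalling, and its binding was examined around the genes that encode the AP-1 transcription factors. The 10 genes were FOS, FOSB, FOSL1 and FOSL2 of the Fos family, JUN, JUNB and JUND of the Jun family, and ATF3, BATF and MAFF, which encode related partners. They were picked from 20033 protein-coding genes annotated on chromosomes 1 to 22, X and Y. The family was chosen from these same data, because of the DNA sequence that AP-1 proteins bind. That sequence is denser near TCF7L1 summits than farther away, as are other sequences counted below. The frequency of the AP-1 sequence is therefore given here only as a description. A summit is the position in a bound region where the most reads are stacked. A summit was linked to a gene when it lay inside the gene or within 250 kb of any of its annotated transcription start sites (TSSs).

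ChIP-seq was done in 2 stable lines of HCT116, an established human colon adenocarcinoma line. Both lines carried the shTCF7L1-2 short hairpin RNA, delivered by lentivirus to lower endogenous TCF7L1, and both were given 1 µg/ml doxycycline to switch on a pCW57.1 plasmid. The plasmid of the first line encoded FLAG-tagged TCF7L1, and that of the other encoded TCF7L1-MUT, whose DNA-binding domain carries point mutations. The same anti-FLAG antibody was used for both, so the binding described is that of an induced, tagged protein and not of the endogenous one. Each group had 1 sample, and no value has a replicate check. The TCF7L1 list held 3663 regions with 3762 summits and the TCF7L1-MUT list 204 regions with 224 summits. The files hold regions and not reads, so library depth was not analysed here, and intervals given below cover counting error only.

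AP-1 is a family of dimers. Proteins of the Fos family pair with those of the Jun family through a basic leucine zipper (bZIP), and the dimer binds TGACTCA or its reverse complement TGAGTCA. Pairs that hold an ATF protein can also bind TGACGTCA, the cyclic AMP response element (CRE). Growth factors and stress switch on several genes of the family within minutes through MAP kinases, and the proteins drive genes of proliferation and invasion. JUN and FOSL1 have been described as targets of β-catenin and TCF in colon cancer cells.

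TCF7L1 was found near 4 of the 10 genes, namely FOSB, JUN, ATF3 and MAFF. These 4 genes had 8 linked summits in 7 regions. FOS, FOSL1, FOSL2, JUNB, JUND and BATF had 0 summits within 250 kb. Among all protein-coding genes 41.2% had a linked TCF7L1 summit, so the 40% of AP-1 genes was near the background (exact 95% interval 12.2 to 73.8%). A summit within 2.5 kb of a TSS was present at 0 of the 10 genes, against 4.8% of protein-coding genes. The exact 95% interval of 0 of 10 runs up to 30.8%, so this count could not be told apart from the background. The number of summits inside an AP-1 gene was also 0. The share of all protein-coding genes with a summit inside was not computed, so this count is only a description. No TCF7L1-MUT summit was linked to any of the 10 genes, against 1.62% of protein-coding genes.

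The sequences under 4 of the summits are shown: the nearest one to each of ATF3, JUN and FOSB, and the further JUN summit, added after its match to the TCF pattern was seen. Among them are all linked summits with a match to a searched pattern. Each is 201 bases of GRCh38 centred on the summit, read 5′ to 3′ on the plus strand. Capitals mark matches on either strand to the AP-1 pattern (TGACTCA or TGAGTCA), the CRE (TGACGTCA), the TCF pattern (CTTTG followed by 2 bases that are each A or T) or the forkhead pattern (TATTTAC or TGTTTAC). The JUN summit 31212 bp upstream holds no match and is in lower case throughout.
ATF3, 6314 bp upstream, chr1:212558920-212559120: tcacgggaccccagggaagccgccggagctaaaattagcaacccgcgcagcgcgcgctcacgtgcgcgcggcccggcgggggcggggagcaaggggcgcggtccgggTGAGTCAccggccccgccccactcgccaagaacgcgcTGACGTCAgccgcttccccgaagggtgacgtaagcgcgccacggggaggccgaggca
JUN, 31212 bp upstream, chr1:58815160-58815360: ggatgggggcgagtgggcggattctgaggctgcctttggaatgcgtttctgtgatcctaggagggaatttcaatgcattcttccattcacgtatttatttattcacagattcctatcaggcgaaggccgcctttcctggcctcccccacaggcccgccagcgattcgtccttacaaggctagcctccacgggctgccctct
JUN, 86374 bp upstream, chr1:58870322-58870522: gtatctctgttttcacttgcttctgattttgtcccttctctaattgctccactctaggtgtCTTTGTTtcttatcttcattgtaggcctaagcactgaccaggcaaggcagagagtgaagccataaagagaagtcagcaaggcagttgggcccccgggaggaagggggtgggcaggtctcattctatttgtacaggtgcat
FOSB, 22318 bp downstream, chr19:45493297-45493497: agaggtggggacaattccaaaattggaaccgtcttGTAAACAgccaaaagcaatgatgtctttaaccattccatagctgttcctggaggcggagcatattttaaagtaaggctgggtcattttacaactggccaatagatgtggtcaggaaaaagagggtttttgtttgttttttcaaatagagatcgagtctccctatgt

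To see where TCF7L1 lay around each gene, the distance of every linked summit from the nearest TSS was measured. All distances below are to the nearest of the gene's annotated TSSs, and a fold enrichment is the authors' ratio of reads at the summit to the local background. The −log10 q-value is that of the authors' peak caller, and a higher value means a stronger call.

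**Figure D1:**
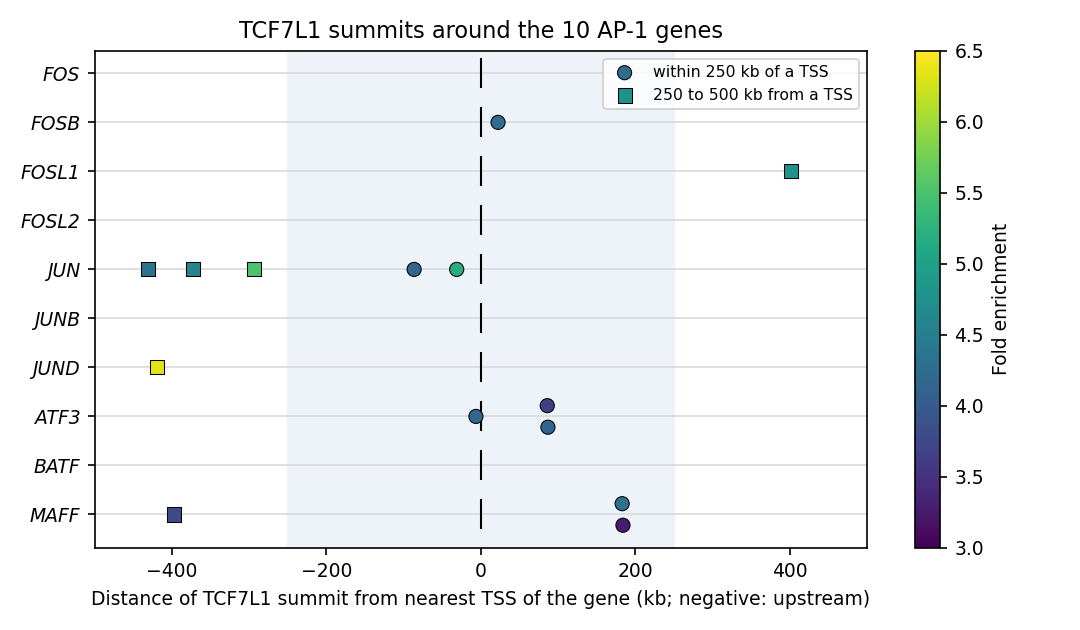
TCF7L1 summits within 500 kb of the 10 AP-1 genes. Each row is a gene, the x axis is the distance from the nearest TSS in kb with upstream to the left, the black tick is the TSS, the colour is the fold enrichment and the shaded band is the 250 kb limit; circles are the 8 linked summits and squares the 6 summits farther out. Neighbouring circles of ATF3 and of MAFF are set apart vertically. FOS, FOSL2, JUNB and BATF have no summit in the range shown.

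JUN encodes c-Jun, the partner that most Fos proteins use. It had 2 linked regions, both upstream. The nearer one (chromosome 1, 58815051 to 58815596) peaked 31212 bp upstream of JUN. There the fold enrichment was 5.18 and the −log10 q-value 7.87. The former was the highest fold enrichment among the linked regions and was above that of 55.5% of all TCF7L1 regions. The summit held 26 reads over a local background of 4.22, a pair of values that the deposited fold enrichment and p-value determine. The other region (58870258 to 58870645) peaked 86374 bp upstream of JUN and had a fold enrichment of 4.15, with 3.06 as its −log10 q-value and 16 reads over a background of 3.1. It was the weakest call of the set by q-value. Both summits lay in introns of LINC01135, a long non-coding RNA on the plus strand, and the nearer was 825 bp from a TSS of that RNA. For both, JUN was the protein-coding gene with the nearest TSS.

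Beyond 250 kb, JUN had 3 further summits, at 294 kb, 373 kb and 431 kb, with fold enrichments of 5.51, 4.6 and 4.34. All 5 summits within 500 kb of JUN were upstream of it. Among protein-coding genes 5.21% had at least 5 summits within 500 kb. The summit at 294 kb was the closest to any AP-1 gene among those not linked, and the most distant linked one was at 184 kb from MAFF.

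ATF3 encodes a stress-induced factor that pairs with Jun proteins. It had the nearest summit of the family, 6314 bp upstream of its most upstream TSS, in a region of 310 bp (chromosome 1, 212558886 to 212559195). The fold enrichment was 4.14, the −log10 q-value 3.29, and 17 reads stood over a background of 3.35. The ATF3 gene has 7 annotated TSSs, and measured from the one of its canonical transcript the same summit was 49741 bp upstream. The summit fell in an exon of ENSG00000260805, a long non-coding RNA on the minus strand, and was 343 bp from a TSS of another, ENSG00000288007. ATF3 was the nearest protein-coding gene. The window had a GC content of 74.1%, against a median of 51.7% over all TCF7L1 regions.

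A broader region of 1297 bp lay downstream of ATF3 (chromosome 1, 212701006 to 212702302) and held 2 summits, 86096 bp and 86951 bp from the nearest ATF3 TSS. Their fold enrichments were 3.64 and 4.11 and their −log10 q-values 4.51 and 6.71. The protein-coding gene nearest to both was BATF3, which encodes another AP-1 partner, with the summits 1434 bp and 2289 bp upstream of its TSS. The region was therefore at the promoter of a bZIP gene that is not among the 10, and it was linked to ATF3 by distance alone.

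FOSB, which encodes FosB, had 1 linked region (chromosome 19, 45493027 to 45493590). Its summit was 22318 bp downstream of the nearest FOSB TSS, where the fold enrichment was 4.23, the −log10 q-value 4.7, and 22 reads stood over a background of 4.43. The summit was 130 bp upstream of a TSS of RTN2, which encodes a reticulon of the endoplasmic reticulum, and lay in introns of longer RTN2 transcripts and of PPM1N. The TSSs of 4 protein-coding genes (RTN2, PPM1N, VASP and ERCC1) were nearer to it than those of FOSB.

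MAFF encodes a small Maf protein, a bZIP factor without a transactivation domain of its own. It had 2 linked regions on chromosome 22, at 38396376 to 38396954 and at 38397216 to 38397827, with summits 183119 bp and 184166 bp downstream. The summits were 1047 bp apart, and their fold enrichments were 4.29 and 3.26, with −log10 q-values of 8.03 and 3.51. The first had the highest −log10 q-value among the linked regions and the second the lowest fold enrichment. Both lay in introns of TPTEP2-CSNK1E and of the long non-coding RNA ENSG00000291015, and the TSSs of 8 protein-coding genes were nearer to them than those of MAFF. The window of the first was repeated sequence: 98.2% of its 31-base words occurred more than once in the assembly, with a median of 157 copies. It was the only one of the 7 linked regions of mostly repeated sequence, against 21.9% of all TCF7L1 regions. How reads that map to several places were treated was not stated.

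The remaining 6 genes were placed by their nearest summit at any distance. For FOSL1, the gene of Fra-1, it was 401 kb downstream, where the fold enrichment was 4.77 and the −log10 q-value 12.8. For JUND, the Jun gene that is expressed most constantly, it was 419 kb upstream, with a fold enrichment of 6.33. FOSL2, the gene of Fra-2, had its nearest summit 640 kb away. At BATF, the gene of a factor best known in lymphocytes, the distance was 964 kb, and at FOS, the founding member of the family, it was 1138 kb. JUNB had the most distant one, at 1469 kb. FOS and BATF are 242 kb apart on chromosome 14, so their search windows overlapped and their empty windows are not separate observations.

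Set beside all protein-coding genes, the 10 distances covered most of the range. A nearer summit was found for 5.97% of protein-coding genes than for ATF3, for 9.76% than for FOSB, for 11.6% than for JUN and for 33.8% than for MAFF. The corresponding values were 54.8% for FOSL1, 56.3% for JUND, 68.9% for FOSL2, 80.4% for BATF, 84.3% for FOS and 89.9% for JUNB. The median distance was 410 kb over the 10 genes and 343 kb over all protein-coding genes, whose quartiles were 116 and 792 kb. The median of the family thus fell between these quartiles. Gene density around the members also varied, from 1 coding gene starting within 250 kb at FOSL2 to 34 at JUNB, and both of these members had 0 linked summits. A relation between gene density and linked summits was not tested.

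**Figure D2:**
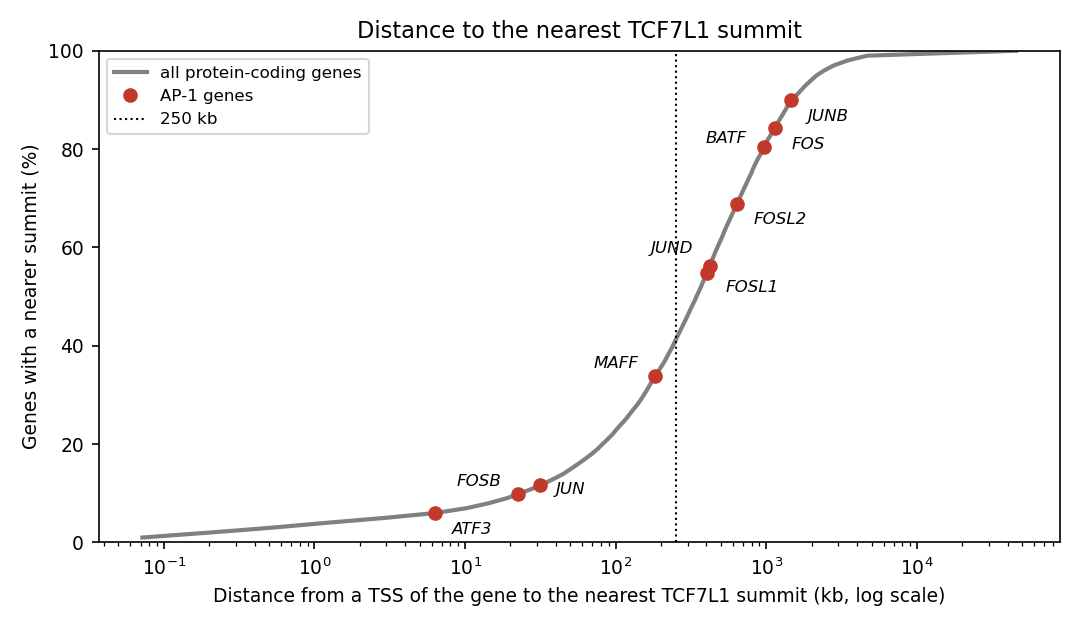
Distance from each gene to its nearest TCF7L1 summit. The x axis is the distance in kb on a log scale and the y axis the percentage of 20033 protein-coding genes with a nearer summit; the grey line is all these genes, red points are the 10 AP-1 genes and the dotted line marks 250 kb. The points run from ATF3 at 6.31 kb to JUNB at 1469 kb, with 4 genes to the left of the dotted line.

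By number, 6 AP-1 genes had 0 linked summits, FOSB had 1, JUN and MAFF had 2 each and ATF3 had 3. Among protein-coding genes 58.8% had 0 and 25.6% had 1, while 15.6% had at least 2 and 6.66% at least 3. The genes with 2 or more were thus 3 of the 10, and their summits included the pair in 1 region at ATF3 and the pair 1047 bp apart at MAFF.

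TCF7L1-MUT served as the control for binding that does not need an intact DNA-binding domain. None of the 7 linked TCF7L1 regions overlapped a TCF7L1-MUT region by 1 bp or more (0 of 7, which allows a share of up to 42.9%), against 3.6% of all TCF7L1 regions. The TCF7L1-MUT summit nearest to an AP-1 gene was 2.44 Mb from FOSB, and the other distances ran from 4.66 Mb at FOSL1 to 68.9 Mb at FOSL2. With 7 regions, a share like that of the whole list could not be told apart from 0.

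Whether the linked summits carried the sequences of AP-1 or TCF factors was examined within 100 bp of the summit, on both strands. The AP-1 pattern was present in 1 of the 7 regions, that of ATF3, against 7.3% of 3631 TCF7L1 regions with sequence (Wilson 95% interval 6.5 to 8.19%). There TGAGTCA was centred 10 bp from the summit. The same window held the CRE centred 47.5 bp from the summit, a pattern found in 0.689% of TCF7L1 regions. The TCF pattern was also present in 1 of the 7 regions, as CTTTGTT centred 36 bp from the JUN summit that lay 86374 bp upstream, against 26.7% of all TCF7L1 regions (interval 25.2 to 28.1%). The forkhead pattern was in 1 of 7, as TGTTTAC on the minus strand 62 bp from the FOSB summit, against 12.6%. At least 1 of the 4 patterns was thus in 3 of the 7 regions, against 37.9% of all TCF7L1 regions. With 7 regions the exact interval of a count of 1 runs from 0.361 to 57.9%, which holds each of these backgrounds. Neither summit at BATF3 and neither at MAFF had a match.

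**Figure D3:**
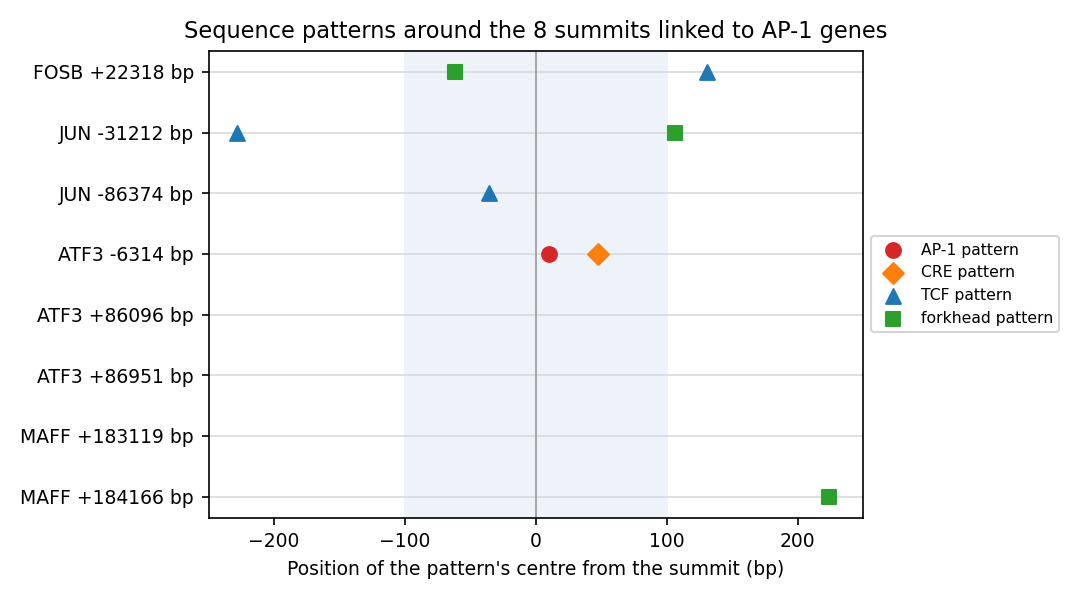
Sequence patterns within 250 bp of the 8 linked summits. Each row is a summit, named by its gene and its distance from the nearest TSS in bp, the x axis is the distance of the pattern's centre from the summit in bp, the symbol gives the pattern and the shaded band is the 100 bp searched in the text. The AP-1 and CRE symbols stand together at ATF3, 10 and 47.5 bp from the summit.

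Across all TCF7L1 regions, which is what led to the choice of this family, matches of the AP-1 pattern numbered 67 and 68 in the bins of 50 bp to either side of the summit, 80 and 70 in the next bins, 50 to 100 bp away, and 41 and 35 in the outermost bins, 200 to 250 bp away. Of the 264 regions on chromosomes that held the pattern within 100 bp, 1 had an AP-1 gene as its nearest protein-coding gene, the region at ATF3. The same region was the only one of the 264 within 250 kb of a TSS of any of the 10. Over all 3573 TCF7L1 regions on chromosomes, 3 had an AP-1 gene as the nearest protein-coding gene, 2 of them at JUN and 1 at ATF3. For the other 9 genes the nearest region with the pattern was between 964 kb, at BATF, and 13.6 Mb, at FOSL1.

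In fold enrichment, 6 of the 7 linked regions were below the median of the TCF7L1 list. Their median fold enrichment was 4.15, with a range of 3.26 to 5.18, against 5.02 over all TCF7L1 regions. By −log10 q-value they lay on both sides, with 3 of the 7 above the median of 5.5 over all regions and a median of 4.7. Of the 7, only the JUN region 31212 bp upstream reached a fold enrichment of 5. The regions had a median width of 564 bp against 409 bp, and a median of 26 reads at the summit over a background of 4.43, against 20 reads over 3.26.

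**Figure D4:**
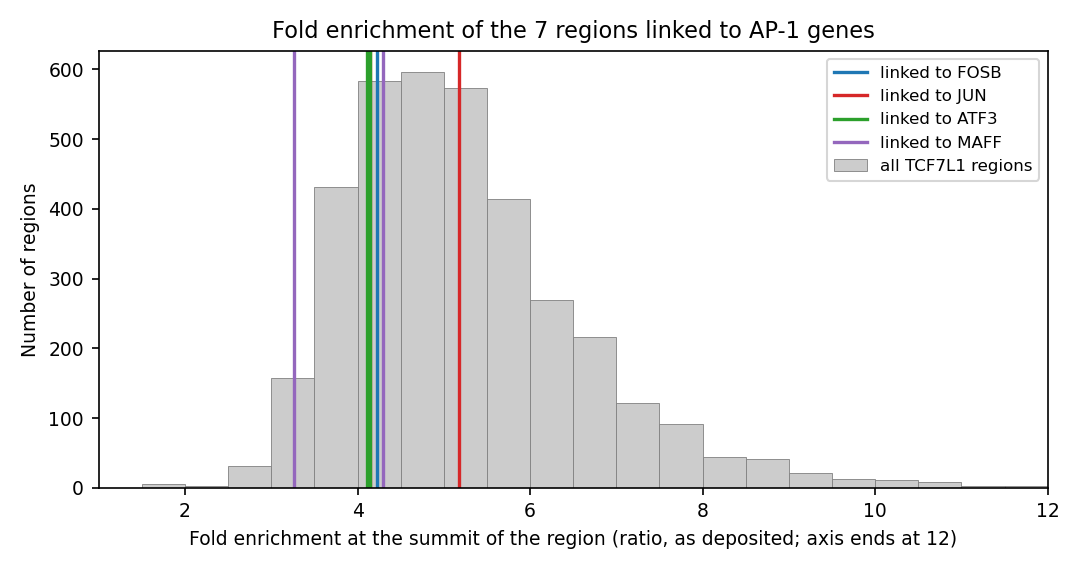
Fold enrichment of the linked regions. Grey bars count all 3663 TCF7L1 regions by the fold enrichment at the summit, in bins of 0.5 on an axis that ends at 12, and coloured lines mark the 7 regions linked to FOSB, JUN, ATF3 and MAFF. Most lines stand between 4 and 4.5, with MAFF as low as 3.26 and JUN as high as 5.18, and the second JUN line, at 4.15, lies under those of ATF3 at 4.11 and 4.14.

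Other genes of the pathway were counted from lists written from general knowledge, but with earlier results of these data known. The shares of these lists are therefore descriptions. Of 28 other bZIP genes, 13 (46.4%) had a linked TCF7L1 summit and 5 (17.9%) had one within 2.5 kb of a TSS, against 41.2% and 4.8% of protein-coding genes. The 5 with a promoter summit were CREB5, BACH2, BACH1, MAF and BATF3. CREB5, a CRE-binding factor that can pair with Jun, had a summit 85 bp upstream, enriched 7.21-fold, and a match to the TCF pattern in its window. BACH2 and BACH1, repressors that pair with small Maf proteins, had summits 469 bp upstream and 319 bp downstream, with fold enrichments of 6.98 and 4.77. At MAF, a large Maf factor, the distance was 32 bp upstream and the fold enrichment 4.3. The windows at BACH2, BACH1, MAF and BATF3 held neither the AP-1 nor the TCF pattern. JDP2, which lies between FOS and BATF and encodes an inhibitor of AP-1, had 0 linked summits.

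Among 24 kinases and factors that act upstream of AP-1, 11 (45.8%) had a linked summit and 3 (12.5%) had one within 2.5 kb. These were MAP3K1, a kinase that starts the JNK cascade, with a summit 1377 bp downstream of a TSS and a fold enrichment of 7.41, and ELK3 and ELK4, partners of serum response factor, with summits 1212 bp and 658 bp downstream and fold enrichments of 5.84 and 6.25. The ELK3 window held the AP-1 pattern, and the windows of MAP3K1, ELK3 and ELK4 all held the TCF pattern. Of 34 genes known as AP-1 targets, 18 (52.9%) had a linked summit. This share counts 1 region at least 4 times, since the neighbouring MMP1, MMP3, MMP10 and MMP13 were linked through the same summit. A summit within 2.5 kb was found at 2 (5.88%) of the 34. They were CCND1, which encodes cyclin D1, with a summit 98 bp upstream, a fold enrichment of 4.53 and a match to the TCF pattern, and GJA1, which encodes connexin 43, with a summit 502 bp upstream and a fold enrichment of 3.61. Differences between the lists were not tested.

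**Figure D5:**
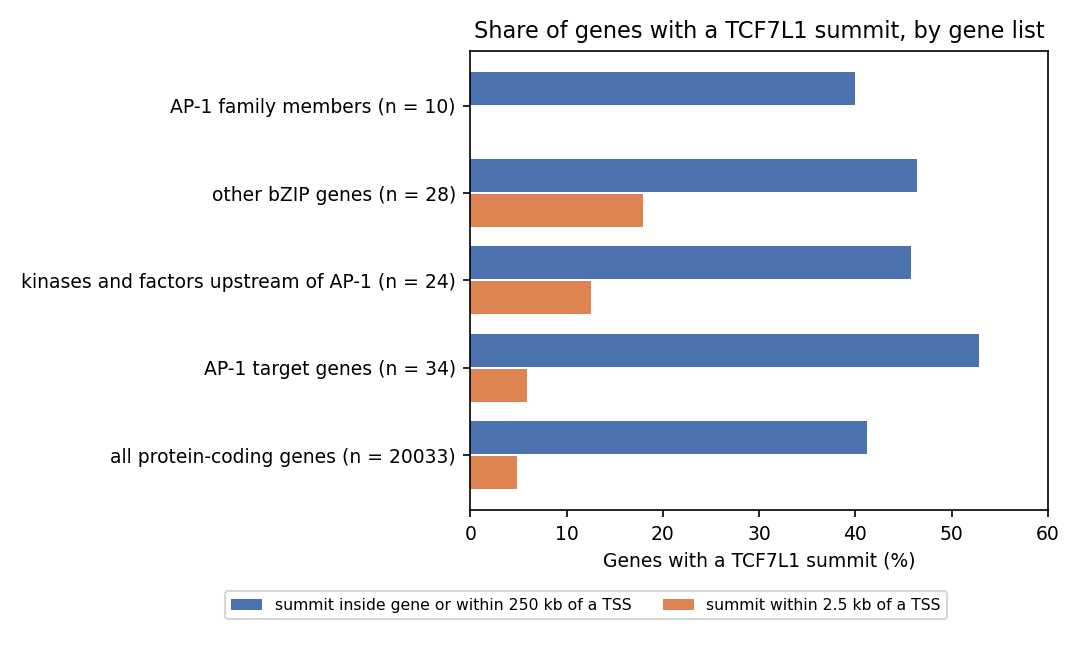
Share of genes with a TCF7L1 summit. Bars starting at 0 give the percentage of each list with a summit inside the gene or within 250 kb of a TSS (blue) and within 2.5 kb of a TSS (orange), with the number of genes in brackets. The AP-1 family has a blue bar of 40% beside 41.2% for all protein-coding genes and an orange bar of 0.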

How the data were processed

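ChIP-seq regions of 2 HCT116 samples, TCF7L1 and TCF7L1-MUT, were assigned by the labelled genotype. Per the study's methods and the submitters' processing notes, reads were trimmed with skewer, aligned to GRCh38/hg38 with BWA (0.7.12) and given to MACS2 (2.1.0), which called peaks in each sample. Use of an input library, the q-value limit and duplicate handling are not given in the sources used here. The deposited fold enrichment (a ratio) and the deposited −log10 p-values and q-values were used as written.

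Genes and TSSs came from GENCODE release 44. Python (3.11.15) was used throughout, and linking and pattern searches were tested on planted data. A region with several summits was represented by the one with the highest −log10 q-value. Reads and background at a summit were the pair that best returned the deposited values under a Poisson model (pseudocount 1), to within 0.001 in −log10 p for 100% of TCF7L1 regions. A region was called repeated sequence when at least 50% of the 31-base words of its window occurred more than once in 194 assembled sequences. No test was made, since there was 1 library a group.

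The 10 genes, and the lists, were chosen with earlier results of these data known. All linked summits were described, and of the other lists the genes with a summit within 2.5 kb were named. BATF3, RTN2, PPM1N, VASP, ERCC1 and TPTEP2-CSNK1E were named because their TSSs are nearer to a linked summit. JDP2 and the 4 MMP genes, which had no such summit, were named after their values were seen. The sequence at the MAFF summits is not reported here.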

Additional observations from a re-analysis of the deposited data

How the results depend on the processing

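The restriction to single-copy sequence was chosen after seeing the data. For 8 results 47 alternative values were computed, of which 33 stayed within 1.5 times the reported count or within the interval of the value, and 14 moved further. No paired analysis was possible because there was 1 sample in each group, and none could be omitted.

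A fold enrichment of at least 5 changed most, leaving 1 AP-1 gene (JUN) with 1 linked summit, 22.3% of protein-coding genes with one, and 0 linked regions with the AP-1 or the TCF pattern. Within 500 kb there were 14 summits linked to 6 AP-1 genes, against 61.6% of protein-coding genes, and 3 linked regions with the TCF pattern. Within 100 kb there were 6 summits linked to 3 AP-1 genes (FOSB, JUN and ATF3), against 23.1% of protein-coding genes. MAFF was no longer linked at this limit. Within 250 kb the share of protein-coding genes was 36.7% for regions of q-value 0.001 or lower, 39.6% from canonical TSSs and 35.3% in single-copy sequence. The TCF pattern was in 3 linked regions with windows of 250 bp and in 4 when CTTTG alone was searched. Counts of promoter summits and of overlaps with TCF7L1-MUT were 0 under each alternative run, but stricter settings could not have changed a count of 0. Only a promoter distance of 5 kb or distances from the edge of the region could have raised the promoter count. Only summits within 500 bp or a limit of 500 kb could have raised the count of overlaps. With 7 regions and 1 library per group, shares of the linked regions are known only within wide intervals.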

Other observations

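Promoter sequences of RefSeq (GRCh38.p14, from 250 bases before to 50 after the start) were found for 9 of the 10 AP-1 genes, all but FOSL1, with 11 promoters in all because ATF3 and MAFF had more than 1. They were searched on both strands for the patterns used at the summits, although no TCF7L1 summit lay in them. The AP-1 pattern was present at 1 of the 9 genes, FOSL2, where TGACTCA began at base 5 of the transcript, against 4.95% of 35116 RefSeq promoters. The CRE TGACGTCA was present at 2, JUND and MAFF, beginning 200 and 54 bases before the start, against 1.85%. The TCF pattern was present at MAFF alone, as CTTTGAT on the minus strand 16 bases before another of its starts, against 13.8%. The forkhead pattern was present at JUNB alone, as TGTTTAC 166 bases before the start, against 5.97%. The counts are per gene and the percentages per promoter, so they are not the same measure, and no difference was tested. These matches are descriptions of letters in the windows, and no binding was measured at them.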
